A study of Mus musculus with 15 samples.

Results

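MHC class II antigen presentation was followed through 10 genes listed by name, with no threshold on a measured value but with earlier results of these data known, out of 49585 genes listed in the larger count tables. They are the class II chains H2-Aa, H2-Ab1 and H2-Eb1, the invariant chain Cd74, the transactivator Ciita, the peptide-loading genes H2-DMa, H2-DMb1, H2-DMb2 and H2-Oa, and the protease gene Ctss. All 10 were listed in every table and passed the filter on low counts in every comparison. The study asked what wild-type hematopoietic progenitor kinase 1 (HPK1) or its kinase-dead mutant M46 does in the exocrine pancreas, and RNA-Seq was run on 15 mouse pancreas libraries, each pooled from 3 mice of the labelled strain C57BL/6.

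The groups were as follows. MC mice (M46/B, with the genotype label HPK1-M46 transgenic, 3 libraries, age 2 months) were compared with 3 libraries of B control mice of the same age. Libraries labelled HC (HPK1/B, 3 libraries, age 4 months) were compared with 2 wild-type (WT) libraries of the same age. KMC mice (M46/Ras/B, 2 libraries, age 9 months) were compared with KC mice (Ras/B, 2 libraries, age 15 months), so genotype and age cannot be told apart there. The labels give pancreas as the tissue of all 15 libraries, but the study describes those of KMC and KC mice as samples of pancreatic ductal adenocarcinoma (PDAC), a cancer of the pancreas. The series' design states cerulein treatment, which causes acute pancreatitis, for the wild-type, HC and MC mice. In the paper's results HC, MC and littermate control mice all received cerulein, whereas its methods give littermate controls PBS. The paper alone therefore does not settle the treatment of the B control libraries. Bac-cre is a tamoxifen-regulated Cre under the acinar elastase I promoter, so the transgenes were directed to acinar cells, whereas class II genes are used mainly by immune cells. The labels do not say whether pools of 1 group shared mice. The paper's number of mice per HC, MC and littermate control group is smaller than 3 separate pools of 3 mice would need. The p-values therefore measure only the spread between these pools. Libraries held 29766575 (MC control 2) to 38745907 (KMC 2) counts. Values below are CPM, counts scaled to library size, after TMM scaling within each experiment (scaled CPM), so levels are comparable within an experiment, and the 3 experiments were scaled separately.

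Class II molecules carry peptides from taken-up proteins to CD4+ T cells. The alpha and beta chains assemble with the invariant chain, which is trimmed by cathepsins in endosomes, and H2-DM then exchanges the remaining invariant chain fragment for peptides under restraint by H2-O. Dendritic cells, macrophages and B cells make these proteins at rest, and interferon-gamma can induce them in other cells through IRF1 and Ciita. In bulk tissue, fewer cells of a type and less RNA per cell cannot be told apart.

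Of the 10 genes, 7 lie together on chromosome 17, from 34092340 to 34316674 on GRCm38 (224 kb), and Ctss, Ciita and Cd74 lie on chromosomes 3, 16 and 18. The promoters of class II genes share an X box, bound by RFX and CREB proteins, and a Y box, bound by NF-Y, and CIITA acts on the proteins that sit there. RefSeq promoter windows (GRCm38.p6, 250 bases before to 50 after the start of transcription) were at hand for 7 of the 10 genes. The X box was searched by its 14-letter consensus with at most 3 mismatches, together with ATTGG, the Y box core, starting 15 to 30 bases after its end on the same strand, on both strands. The pair was found in 24 of 32851 windows (0.0731%), among them those of H2-Eb1, H2-DMb1 and H2-DMb2 and, outside the 10 genes, H2-Ob and H2-Eb2. It was not found in the windows of the other 4 genes, H2-Aa, H2-DMa, H2-Oa and Ctss, which says only that these letters are not there. These 5 stretches are shown because they are where the pair stands in class II promoters, with 10 bases on either side, and capitals mark the X box and then the Y box core. H2-DMb1 and H2-DMb2 have 23 bases between the boxes, H2-Eb1 and H2-Eb2 have 22, and H2-Ob has 20.
H2-Eb1, chr17:34305762-34305822, plus strand: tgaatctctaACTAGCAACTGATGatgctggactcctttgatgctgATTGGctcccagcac
H2-DMb1, chr17:34153083-34153144, plus strand: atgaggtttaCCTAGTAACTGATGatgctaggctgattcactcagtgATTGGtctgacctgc
H2-DMb2, chr17:34145112-34145173, plus strand: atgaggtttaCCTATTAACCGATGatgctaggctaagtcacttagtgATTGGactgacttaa
H2-Ob, chr17:34238804-34238862, plus strand: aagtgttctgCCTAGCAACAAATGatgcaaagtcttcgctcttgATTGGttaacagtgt
H2-Eb2, chr17:34325529-34325589, plus strand: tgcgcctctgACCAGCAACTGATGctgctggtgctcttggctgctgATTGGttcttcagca

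ATTGG alone, on either strand, was in 37.4% of all windows, and besides H2-Eb1, H2-DMb1 and H2-DMb2 it was in those of H2-Aa, H2-Oa and H2-DMa. The interferon-type core GAAANNGAA was in 8.56% of windows and, among the 7 genes with a window, in that of Ctss. A match in these letters is a description and not a measured site.

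Several libraries stood apart or went against a label. Map4k1, the mouse gene of HPK1, was at 7.33, 5.05 and 7.93 scaled CPM in the libraries labelled HC and at 15.4 and 11.5 in their controls. This goes against a label of added HPK1, though the change was not called (log2 -0.99 ± 0.25, edgeR adjusted p = 0.145). The paper reports HPK1 in acinar cells and high HPK1 kinase activity for HC mice. The species of the transgene's cDNA is not given in the sources used here, so whether Map4k1 counts include it is unknown, and these libraries are called by their label throughout. Map4k1 was higher in MC (8.32, 6.79 and 7.51) than in control (3.80, 4.14 and 2.34) and higher in KMC (5.92 and 11.4) than in KC (0.545 and 1.55). Its log2 fold changes in MC, HC and KMC were 1.13, -0.99 and 2.99. The medians of the 9 pan-leukocyte genes described below were 1.14, -0.77 and 2.61. The part of leukocyte content in the Map4k1 values was not tested. HC 3 had 0.761 scaled CPM of Xist and 48.4 of Ddx3y, whereas the other 4 libraries of that experiment had Xist between 579 and 929 and no Ddx3y counts. The KMC libraries had female and the KC libraries male levels of both genes, so sex and genotype cannot be told apart between them.

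The class II chains themselves divided the libraries in a second way. In mice of the H2b haplotype, such as C57BL/6, the I-E alpha chain gene lacks its promoter and is listed as the pseudogene H2-Ea-ps. It had 96 counts in HC 3 and 119 in HC control 2 (3.04 and 3.05 scaled CPM), and 0 in HC 1, HC 2 and HC control 1. Set against H2-Aa in the same library, that was 4.90 and 5.77 counts per 1000 of H2-Aa, where a count of 0 in HC 1 allows up to 0.187, in HC 2 up to 0.279 and in HC control 1 up to 0.0952 (3 counts, counting error only). KC 1 had 2 counts and KC 2 had 6, which was 2.95 (95% exact Poisson interval 0.358 to 10.7) and 4.23 (1.55 to 9.20) per 1000 of H2-Aa. KMC 1 and KMC 2 had 0, which allows up to 0.413 and 0.120. H2-Ea-ps was not listed in the MC table.

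The partner beta chain followed the same division. H2-Eb1 counts were 0.384 and 0.359 of H2-Aa counts in HC 3 and HC control 2 and 0.476 and 0.396 in KC 1 and KC 2. In the other 11 libraries this ratio lay between 0.763 (MC 2) and 0.836 (HC control 1). Thus the 4 libraries with H2-Ea-ps counts were the 4 with a low H2-Eb1 share, with no value between 0.476 and 0.763. H2-DMb2 counts relative to H2-DMb1 counts were 0.614 and 0.488 in HC 3 and HC control 2 against 0.176 to 0.250 in the other 3 libraries of that experiment. This ratio did not follow the division elsewhere, since KC 2 (0.439) was high but KC 1 (0.206) was like KMC 1 (0.209) and KMC 2 (0.187), and MC 1 had the highest of all (0.910), with the other 5 libraries of its experiment between 0.118 and 0.203. Among 15199 genes tested in the HC experiment with a mean of at least 1 scaled CPM, 9 besides H2-Ea-ps, which defined the pair, separated HC 3 and HC control 2 from the other 3 libraries by at least 2-fold, a rule set after the values were seen. Of these 9, C4a and H2-T10 lay on chromosome 17, in the MHC region, and the other 7 on other chromosomes. Of the 15199 genes tested, 729 lay on chromosome 17. H2-T23, a nonclassical class I gene, did not meet this 2-fold rule. It was at 66.3 and 56.9 scaled CPM in the pair and at 129, 104 and 123 in HC 1, HC 2 and HC control 1. A difference in MHC haplotype between the pooled mice was not tested, and the HC results below are given with and without this pair. In the KMC experiment the division coincided with the groups, so it and the genotype cannot be told apart.

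**Figure D1:**
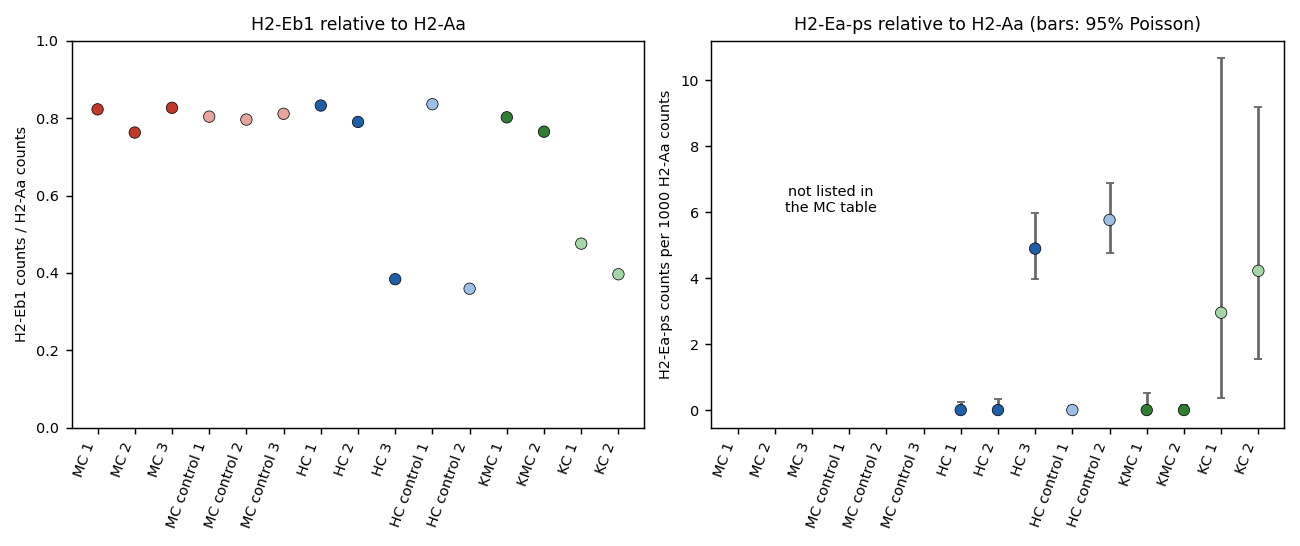
Left, H2-Eb1 counts divided by H2-Aa counts in each of the 15 libraries (linear axis from 0). Right, H2-Ea-ps counts per 1000 H2-Aa counts with 95% exact Poisson intervals as bars, for the 9 libraries whose table lists it. HC 3, HC control 2, KC 1 and KC 2 sit between 0.359 and 0.476 on the left and between 2.95 and 5.77 on the right, and the other libraries sit between 0.763 and 0.836 on the left and, where listed, at 0 on the right.

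In MC pancreata all 10 genes were higher than in control, 9 of them without overlap between the groups, and none passed the edgeR test across all genes. H2-Aa, the alpha chain of I-A, was at 82.9, 88.0 and 117 scaled CPM in MC and at 39.8, 37.7 and 24.3 in control. The lowest MC library was thus above the highest control, and the fold change was 2.83 (log2 1.501 ± 0.22 SE, edgeR adjusted p = 0.0782, n = 3 and 3). This was the smallest adjusted p among the 13902 genes tested, but it was shared, H2-Eb1 having the same value, and so gives no rank. H2-Ab1, the I-A beta chain, was at 66.5, 79.1 and 102 in MC and at 32.8, 34.0 and 18.9 in control (2.89-fold). H2-Eb1 was at 68.2, 67.1 and 96.9 in MC and at 31.96, 30.01 and 19.7 in control (2.84-fold). All 3 chains lay within 2.83- to 2.89-fold of control, and in each of them MC 3 was the highest library and MC control 3 the lowest.

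Cd74, the chaperone of newly made class II chains, was at 184, 176 and 237 scaled CPM in MC and at 83.4, 86.6 and 46.9 in control (2.75-fold, log2 1.46 ± 0.25). Ciita, the transactivator without which class II genes are hardly transcribed, was at 7.67, 8.44 and 10.02 in MC and at 3.80, 3.33 and 2.02 in control (2.84-fold, log2 1.504 ± 0.25). Ciita, Cd74 and the 3 chains thus lay between 2.75- and 2.89-fold of control.

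The loading genes were less uniform. H2-DMa and H2-DMb1, the chains of the peptide exchanger, were 2.08-fold (log2 1.06 ± 0.26) and 2.21-fold (log2 1.14 ± 0.27) higher. H2-DMb2, a near-identical copy of H2-DMb1 whose reads the counting may have divided between both genes, was at 7.17, 1.90 and 1.41 in MC and at 0.727, 0.953 and 0.449 in control, so that MC 1 alone accounted for most of its mean (4.78-fold with MC 1 and 2.31-fold without it). H2-Oa, the alpha chain of the H2-O modulator, had 19, 22 and 11 counts in MC and 5, 7 and 1 in control. Ctss, the cathepsin that trims the invariant chain in antigen-presenting cells, was at 81.8, 121 and 211 in MC and at 66.9, 108 and 36.6 in control, and here the groups overlapped (1.96-fold, adjusted p = 0.362).

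A gene was called where its Benjamini-Hochberg adjusted p over all genes tested was 0.05 or less and its log2 fold change was 1 or more in either direction, and edgeR called 0% of genes higher in MC. At an unadjusted p under 0.05, 9 of the 10 genes and 14.7% of all genes passed. DESeq2 called 8 of the 10 higher, all but H2-Oa and Ctss, against a background of 3.04% of genes called higher. Groups without overlap were found for 9 of the 10 genes and, in the same direction, for 10.9% of all genes tested. The median log2 fold change was 1.502 over the 10 genes and -0.02 over all genes. Without MC control 2, edgeR called 5 of the 10 genes and 4.8% of all genes higher, and without MC 1 it called 3 of the 10 and 1.17% of all.

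**Figure D2:**
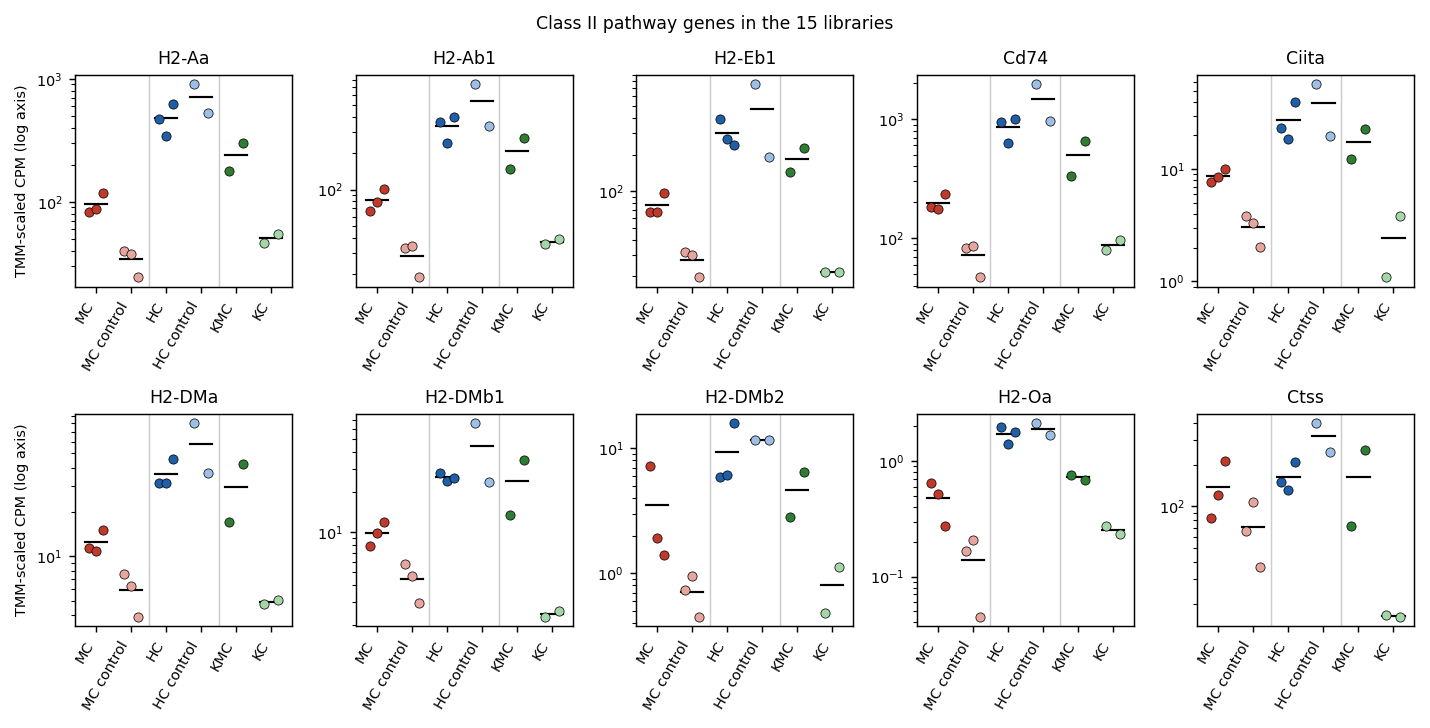
Scaled CPM of the 10 genes on a log axis, 1 point a library and a bar at each group's mean, with grey lines between the 3 experiments, which were scaled separately. MC points lie above their controls except for Ctss, KMC points lie above KC for all 10 genes, and points of libraries labelled HC overlap their controls except for Ctss.

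In the libraries labelled HC all 10 genes had a mean below control, and none was called by edgeR or DESeq2. H2-Aa was at 475, 341 and 622 scaled CPM against 905 and 528 in control (log2 -0.58 ± 0.31, adjusted p = 0.430, n = 3 and 2). H2-Ab1 was at 359, 244 and 399.8 against 744 and 334. H2-Eb1 was at 395, 269.7 and 238 against 756 and 189.7, and Cd74 at 953, 633 and 993 against 1964 and 960.2. For these 4 genes HC control 1 was the highest library of the experiment, and HC control 2 lay within or below the range of the libraries labelled HC. Ciita was likewise at 23.4, 18.7 and 39.5 against 57.1 and 19.8.

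Ctss was the gene of the 10 with the lowest p in this comparison and the only one whose groups did not overlap, at 151, 130.3 and 208 against 395 and 248 (log2 -0.98 ± 0.26, edgeR adjusted p = 0.166). DESeq2 gave it an adjusted p of 0.0104 and a log2 fold change of -0.99, short of the fold required for a call. H2-DMa was at 31.7, 31.3 and 45.4 against 79.7 and 36.6, and H2-DMb1 at 27.7, 24.5 and 25.7 against 65.8 and 23.9. H2-DMb2 (5.88, 6.13 and 15.8 against 11.6 and 11.6) was high in HC 3. H2-Oa (1.98, 1.398 and 1.78 against 2.12 and 1.69) differed by a log2 of only -0.15 ± 0.28.

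Of all 18407 genes tested, edgeR called 0.0978% lower and 0.467% higher, and of the 17308 with an adjusted p from DESeq2, DESeq2 called 1.21% lower and 1.57% higher. At an unadjusted p under 0.05, 1 of the 10 genes and 15.9% of all genes passed. There was no overlap for 1 of 10 genes and for 16.1% of all genes in that direction, and the median log2 fold change was -0.67 over the 10 genes and 0.00 over all. The direction rested on HC control 1: without it 4 of the 10 values were positive, up to 0.67 for H2-Eb1, and the median of the 10 was -0.009. Without HC control 2 that median was -1.15. Without HC 3 and HC control 2, the pair with H2-Ea-ps, all 10 remained below control, from -1.5001 to -0.34, with 9 at an unadjusted p under 0.05 (9.31% of all genes in that fit) and none called, and the single control left was HC control 1.

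In KMC samples all 10 genes were higher than in KC, with no overlap in any of them, and none was called by edgeR. H2-Aa was at 179 and 298 scaled CPM in KMC and at 46.1 and 55.0 in KC (4.71-fold, log2 2.24 ± 0.49, adjusted p = 0.0818, n = 2 and 2). H2-Ab1 was at 147 and 267 against 35.4 and 38.8 (5.59-fold). H2-Eb1 was at 143 and 228 against 21.9 and 21.8 (8.49-fold, log2 3.09 ± 0.47, adjusted p = 0.0796). The larger factor of H2-Eb1 than of H2-Aa goes with the low H2-Eb1 share of the KC libraries given above.

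Cd74 was at 335 and 657 against 79.4 and 96.3 (5.64-fold), and Ciita at 12.4 and 22.7 against 1.09 and 3.83 (6.93-fold). H2-DMa was at 17.2 and 42.1 against 4.77 and 5.03 (6.05-fold) and H2-DMb1 at 13.5 and 34.7 against 2.31 and 2.55 (9.89-fold). H2-DMb2 was at 2.83 and 6.49 against 0.477 and 1.12, and H2-Oa had 31 and 58 counts against 4 and 6. Ctss was at 71.8 and 256 against 16.4 and 16.1 (10.1-fold, log2 3.33 ± 0.66, adjusted p = 0.0796). In scaled CPM, KMC 2 was above KMC 1 in every gene of the 10 but H2-Oa, which was at 0.762 in KMC 1 and 0.691 in KMC 2. Some folds moved by over 1.5 times when 1 library was left out. Without KMC 2 that of Ctss was 4.48, that of H2-DMb1 5.597, that of H2-DMa 3.55 and that of H2-DMb2 3.46 (5.65 with all 4 libraries), and without KMC 1 that of Ctss was 15.7. Without KC 2 the fold of Ciita was 16.0 and that of H2-DMb2 9.72, and without KC 1 that of Ciita was 4.54.

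Of 15733 genes tested, edgeR called 0.00636% higher, and DESeq2 called 9.93% higher of the 15442 with an adjusted p, among them 9 of the 10 (all but H2-Oa). At an unadjusted p under 0.05, 9 of the 10 and 25.6% of all genes passed. There was no overlap for 10 of 10 genes, against 34.4% of all genes in that direction, and the median log2 fold change was 2.55 over the 10 genes and 0.03 over all. The 28 acinar genes held 67.0% (KC 1), 58.7% (KC 2), 47.6% (KMC 1) and 24.2% (KMC 2) of all counts. With library size alone as the scaling, the median of all genes became 1.47, that of the 10 genes lay 2.65 above it, and edgeR called all 10 and 29.8% of all genes higher.

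**Figure D3:**
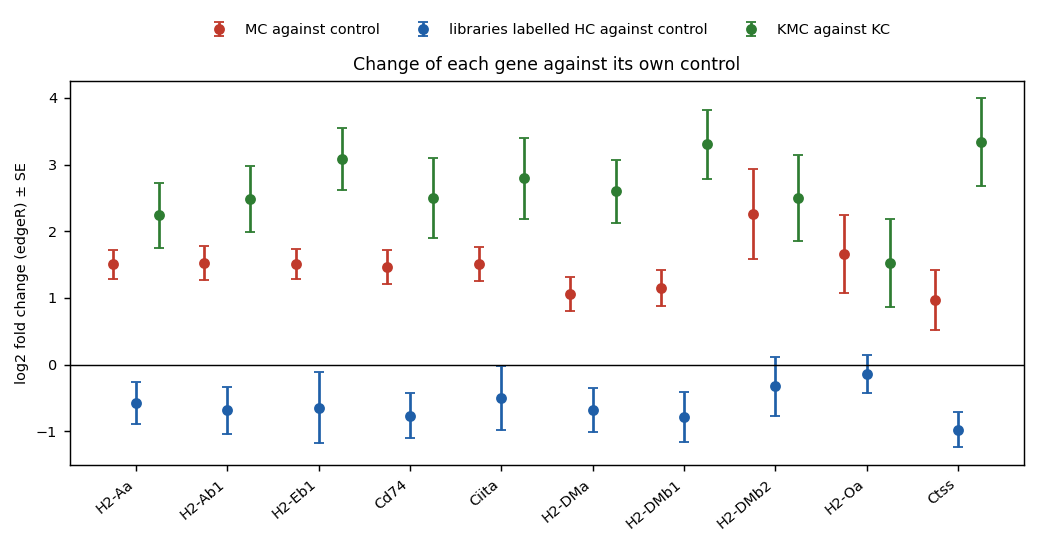
Log2 fold change of each of the 10 genes against its own control (edgeR, bars are SE), for MC, the libraries labelled HC and KMC. MC values lie between 0.97 and 2.26, HC values between -0.98 and -0.15, and KMC values between 1.53 and 3.33.

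The difference between the MC effect and the HC effect was fitted directly over their 11 libraries. All 10 genes had a larger log2 fold change in MC, by 1.73 to 2.57, and all 10 had an unadjusted p under 0.05, as had 20.8% of all genes. Of the 10, edgeR called 3, namely H2-Aa (difference 2.08 ± 0.40, adjusted p = 0.0338), Cd74 (2.22 ± 0.45, adjusted p = 0.0355) and H2-Ab1 (2.21 ± 0.47, adjusted p = 0.0389). Of all 14884 genes, edgeR called 1.77% higher in this sense, and DESeq2 5.58% of the 14578 with an adjusted p, with 9 of the 10 genes among the latter. All tested genes of the leukocyte lists lay on the same side. The median difference was 2.03 for the 10 class II genes, 1.86 for the 9 pan-leukocyte genes (edgeR called 3, DESeq2 8), 1.76 for the 10 macrophage genes (3 and 6), 1.97 for the 10 dendritic cell genes (2 and 5), 2.91 for the 7 T cell genes (0 and 6) and 4.88 for the 8 B cell genes (2 and 8). Neutrophil genes had a smaller median difference of 0.88 over 5 genes tested (0.31 to 1.16). None of these 5 was called by edgeR or DESeq2 or had an unadjusted p under 0.05, and differences between lists were not tested. The 7 fibroblast genes also lay on that side, with a median difference of 1.02. By their labels the experiments differ in age and library preparation. The paper instead names Illumina TruSeq stranded libraries and gives HC, MC and littermate control mice the same age range. A difference between experiments cancels only where it is additive on the log scale. With library size alone as the scaling, or library size without acinar genes, none of the 10 was called, beside 0.625% and 0.8% of all genes called higher. Without the pair with H2-Ea-ps none of the 14967 genes tested was called, and for the 10 genes the differences ran from 1.98 to 3.18. Leaving out single libraries gave 0 calls among the 10 without any of MC 2, MC 3, MC control 1, MC control 3, HC 2, HC 3 or HC control 1, where 0% to 0.484% of all genes were called higher. It gave 1 call without HC 1 (1.53% of all genes), 3 without MC 1 (2.35%), 6 without MC control 2 (9%) and 7 without HC control 2 (1.09%). The size of the difference rested in part on HC control 1: without it the differences ran from 0.84 to 2.58, with 8 of the 10 at an unadjusted p under 0.05. As a ratio of the MC fold to the HC fold, that omission took H2-Eb1 from 4.43 to 1.79, Ciita from 3.98 to 2.06, H2-DMb1 from 3.79 to 2.03, H2-DMa from 3.33 to 2.10, H2-Ab1 from 4.64 to 2.89 and Cd74 from 4.66 to 3.07. H2-DMb2 went from 5.93 to 2.85 without MC 1 and to 9.10 without HC 3, and H2-Eb1 to 7.08 without HC control 2.

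Between genes, levels were compared per kb of exon. In MC, Cd74 had the highest mean level at 118 ± 19.8 scaled CPM per kb (SD, n = 3), beside Ctss at 102 ± 48.8, from which it did not differ beyond that spread. H2-Eb1 (39.8 ± 8.67), H2-Ab1 (32.2 ± 7.04) and H2-Aa (25.3 ± 4.87) followed and overlapped their neighbours. H2-DMb1 (5.87 ± 1.204), H2-DMa (3.62 ± 0.663) and H2-DMb2 (2.00 ± 1.83) were lower again, and Ciita (0.914 ± 0.126) and H2-Oa (0.339 ± 0.134) lowest. In the MC controls Ctss (51.9 ± 26.4) and Cd74 (43.1 ± 13.1) also led. In KC, where the 4 leading genes after Cd74 (52.3 ± 7.12, n = 2) lay close together, the order was H2-Ab1 at 14.5 ± 0.941, H2-Aa at 13.3 ± 1.65, Ctss at 11.97 ± 0.159 and H2-Eb1 at 11.2 ± 0.0477. In KMC, Cd74 led at 295 ± 136, and Ctss (121 ± 96.0) and H2-Eb1 (95.4 ± 30.7) did not differ beyond their spread, with Ctss above H2-Eb1 in KMC 2 (189 and 117) and below it in KMC 1 (52.9 and 73.7). In the libraries labelled HC, Cd74 (512 ± 118, n = 3) was followed by H2-Eb1 (155 ± 42.7), H2-Ab1 (130 ± 31.4), H2-Aa (126 ± 36.9) and Ctss (120 ± 29.7), and in their controls by H2-Eb1 (243 ± 206, n = 2), Ctss (237 ± 76.6), H2-Ab1 (210 ± 113) and H2-Aa (189 ± 70.1), in both cases within each other's spread.

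Pan-leukocyte, macrophage and T cell genes lay on the same side of control as the class II genes in each comparison, whereas neutrophil genes did not in MC, where 3 of 5 were above control with a median log2 fold change of 0.12. The summed level of 9 pan-leukocyte genes (Ptprc, Cd53, Laptm5 and others, with Laptm5 the most abundant and none at 0 in any library) was 291, 306 and 404 scaled CPM in MC against 145, 240.4 and 84.3 in control. It was 436, 315 and 408 in the libraries labelled HC against 825 and 497, and 204 and 474 in KMC against 39.1 and 65.7 in KC. Median log2 fold changes of the 9 genes were 1.14, -0.77 and 2.61. None of them was called by edgeR within an experiment (8, 8 and 9 had an unadjusted p under 0.05), and DESeq2 called 4 higher in MC, 1 lower in HC and 9 higher in KMC. Of all genes, 14.7%, 15.9% and 25.6% had an unadjusted p under 0.05. DESeq2 called 3.04% of all genes higher in MC, 1.21% lower in HC and 9.93% higher in KMC. H2-Aa divided by this sum in the same library was 0.285, 0.288 and 0.290 in MC and 0.274, 0.157 and 0.288 in control. It was 1.09, 1.09 and 1.52 in the libraries labelled HC and 1.096 and 1.06 in control, and 0.874 and 0.629 in KMC against 1.18 and 0.836 in KC. As ratios to the leukocyte sum, 9 of the 10 genes overlapped between the groups in each comparison, and the median log2 difference of the mean ratios was 0.26 in MC, 0.17 in HC and -0.14 in KMC. The exceptions were H2-Ab1 in MC (1.25-fold), H2-Oa in HC (1.49-fold) and H2-DMb1 in KMC (1.42-fold), all higher. The share of all genes without overlap on this ratio was not measured, so these counts have no background to be read against. The part of leukocyte content in the results was not tested.

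Of 10 macrophage genes DESeq2 called 3 higher in MC, 1 lower in HC and 10 higher in KMC, beside 3.04%, 1.21% and 9.93% of all genes. None of the 10 was called by edgeR, and 5, 8 and 10 had an unadjusted p under 0.05, beside 14.7%, 15.9% and 25.6% of all genes. The macrophage genes (Lyz2 the most abundant, none at 0) summed to 1111, 1137 and 1593 in MC against 694, 1382 and 536 in control, with MC control 2 inside the MC range. They summed to 1602, 1799 and 2458 in the libraries labelled HC against 4319 and 2488, and to 946 and 2981 in KMC against 360.1 and 300.0 in KC. Dendritic cell genes (10 genes) summed to 25.4, 26.7 and 30.6 in MC against 17.1, 18.5 and 14.9, with Batf3 at 0 counts in MC control 3, and Zbtb46 was the most abundant in all 6. They summed to 73.7, 36.7 and 67.5 against 132 and 72.2 in the HC experiment and to 36.2 and 68.4 against 12.9 and 14.6 in KMC and KC, with Ccr7 and Batf3 at 0 in KC 1. T cell genes (7 genes) summed to 12.4, 7.03 and 8.57 in MC against 2.28, 2.89 and 2.07, to 43.2, 19.3 and 18.7 against 62.4 and 30.7 in the HC experiment, and to 10.4 and 11.2 in KMC against 1.97 and 3.64 in KC, where Cd5 was at 0 in KC 1.

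B cell genes (8 genes) stood out in 1 library. They summed to 80.5 in MC 1 with Cd79a the most abundant at 17.1, to 19.8 in MC 2 and 6.64 in MC 3, and to 3.14, 3.66 and 1.80 in control. H2-DMb2 was high in the same library (7.17 against 1.90 and 1.41), as was H2-Ob, the beta chain of H2-O, which B cells make (6.15 against 1.57 and 1.19). Lymph node genes (8 genes, of which the MC table lists 6 and each of the others lists 7) were also highest in MC 1, summing to 119 with Cxcl13 at 109, against 32.3 and 6.54 in MC 2 and MC 3 and 3.24 to 10.2 in control, and they summed to 26.4, 56.7 and 64.0 in the libraries labelled HC against 36.5 and 48.8, and to 12.7 and 12.1 in KMC against 2.25 and 13.2 in KC. H2-Aa, H2-Ab1 and Cd74 showed no such excess in MC 1, which was the lowest or middle MC library for each. DESeq2 called all 8 B cell genes higher in MC. B cell genes summed to 19.1, 18.8 and 19.9 in the libraries labelled HC against 34.1 and 51.0, where edgeR called 1 of the 8 lower (Cd79a), and to 25.6 and 18.9 in KMC against 1.29 and 12.1 in KC, where Pax5 was at 0 in KC 1. Neutrophil genes (Csf3r the most abundant in most libraries) summed to 24.2, 38.7 and 25.6 in MC against 20.4, 50.4 and 7.01, to 43.4, 51.0 and 50.1 against 99.1 and 71.9 in the HC experiment, and to 17.2 and 33.5 in KMC against 1.57 and 4.72 in KC, with Ly6g at 0 in HC 1, HC 3, both HC controls and both KC libraries. Acinar genes, the defining markers of exocrine pancreas, were all above 0 in every library with Ctrb1 the most abundant, but they took 5.69% to 8.89% of counts in the HC experiment. They took 45.0%, 36.3% and 36.1% in MC against 49.7%, 41.2% and 54.6% in control, where 25 of the 28 were below control in MC (median log2 -0.58), with none called by edgeR and 2 at an unadjusted p under 0.05. The part of acinar content in the MC results was not tested. Fibroblast genes had median log2 fold changes of 0.69, -0.47 and 2.63 in MC, HC and KMC, with none called by edgeR (2, 1 and 6 at an unadjusted p under 0.05) and 0, 0 and 6 called by DESeq2. Of all genes, 14.7%, 15.9% and 25.6% had an unadjusted p under 0.05, and edgeR called 0.0978% lower in HC. DESeq2 called 3.04% of all genes higher in MC and 9.93% in KMC. Ductal genes had medians of 0.07, 0.32 and 0.82.

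**Figure D4:**
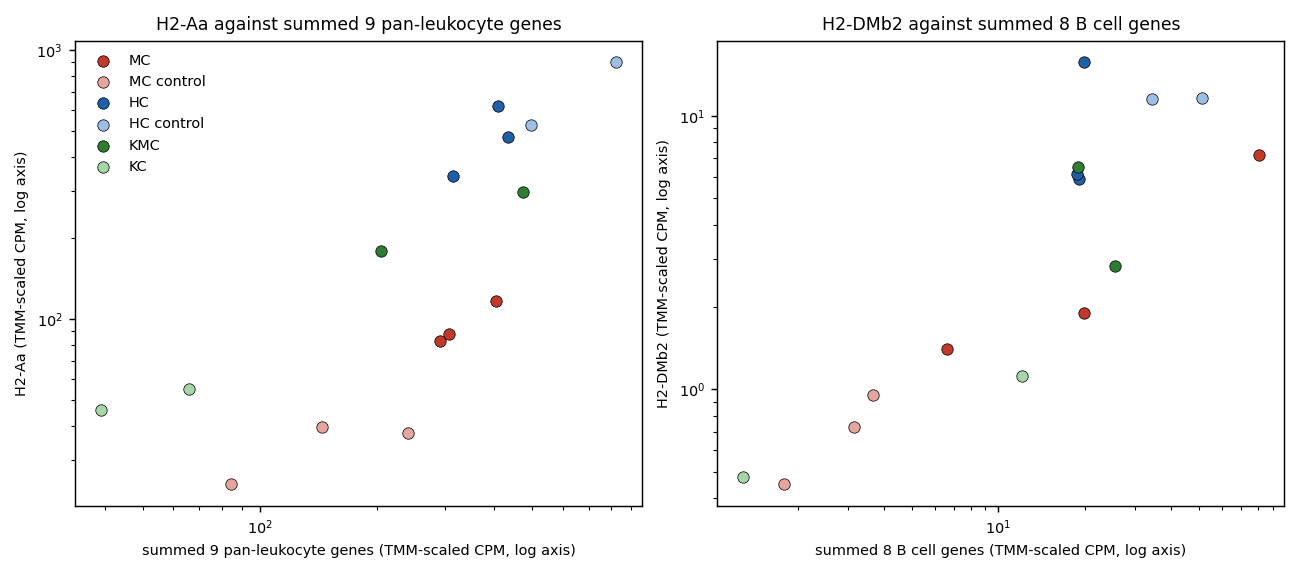
Left, H2-Aa against the summed 9 pan-leukocyte genes, and right, H2-DMb2 against the summed 8 B cell genes, each as scaled CPM on log axes with 1 point a library. MC 1 is the MC point farthest to the right on the right panel, at 80.5 and 7.17 scaled CPM, and on the left the KMC points lie above and to the right of the KC points.

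Among 32 further genes of the pathway, of which 30, 31 and 30 were tested in MC, HC and KMC, none was called by edgeR within an experiment. At an unadjusted p under 0.05 there were 12 of 30 in MC, 5 of 31 in HC and 13 of 30 in KMC, beside 14.7%, 15.9% and 25.6% of all genes. DESeq2 called 7, 1 and 10, all higher, beside 3.04%, 1.57% and 9.93% of all genes called higher. Values above control numbered 22 of 30, 9 of 31 and 23 of 30. Of the other class II chains, H2-Ob was at 6.15, 1.57 and 1.19 in MC against 0.496, 0.417 and 0.449 in control (log2 2.69 ± 0.68, adjusted p = 0.166) and at 3.44 and 2.69 in KMC against 0.749 and 0.929 in KC (log2 1.85 ± 0.51, adjusted p = 0.107). H2-Eb2, a second E beta gene, had 46, 29 and 18 counts in MC against 3, 0 and 4 in control, and 30 and 45 in KMC against 0 and 2 in KC. In the libraries labelled HC it had 18, 20 and 30 counts against 55 and 71 (log2 -1.26 ± 0.34, adjusted p = 0.168). There H2-Ob was at 3.28, 2.76 and 4.41 scaled CPM against 4.91 and 4.99 (log2 -0.51 ± 0.26, adjusted p = 0.403).

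The factors that sit on the X and Y boxes had no common direction. Of the 7 (RFX subunits, NF-Y subunits and Creb1), 0 were called in any comparison by edgeR or DESeq2. At an unadjusted p under 0.05 there were 0, 0 and 1 in MC, HC and KMC, beside 14.7%, 15.9% and 25.6% of all genes. Their median log2 fold changes were -0.07, 0.06 and -0.04, with 2, 5 and 3 of the 7 above control. The values ran from -0.31 to 0.25 in MC, from -0.49 to 0.26 in HC and from -0.68 (Rfxap) to 1.17 (Nfya) in KMC, where the groups did not overlap for 2 higher and 3 lower genes, beside 34.4% and 30.9% of all genes. Rfx5 was at 7.98, 8.48 and 9.16 in MC against 11.6, 9.32 and 7.28 in control (log2 -0.14 ± 0.19), at 12.1, 12.9 and 14.4 in the libraries labelled HC against 13.1 and 12.6, and at 3.93 and 5.02 in KMC against 2.18 and 3.72. Those with the lowest p were Rfxank in MC (log2 -0.31 ± 0.18, adjusted p = 0.427) and Nfya in the other experiments, at -0.49 ± 0.25 (adjusted p = 0.402) in HC and 1.17 ± 0.35 (adjusted p = 0.120) in KMC.

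Along the route from interferon-gamma to Ciita, Socs1, the feedback inhibitor of this route, was at 2.06, 2.96 and 2.96 scaled CPM in MC against 0.925, 1.102 and 0.809 in control (log2 1.49 ± 0.27, adjusted p = 0.0865). Irf1, which acts on the Ciita promoter, was at 19.9, 32.9 and 30.3 against 16.99, 16.4 and 10.8 (log2 0.91 ± 0.24, adjusted p = 0.178). Unlike the B cell genes, both were lowest in MC 1 of the MC libraries. Of the 6 genes tested, edgeR called none. At an unadjusted p under 0.05 there were 4, 0 and 3 in MC, HC and KMC, beside 14.7%, 15.9% and 25.6% of all genes. DESeq2 called 1 higher in MC (Socs1), 0 in HC and 2 higher in KMC (Ifngr1 and Socs1). Of all genes it called 3.04% higher in MC and 9.93% in KMC. The median log2 fold changes of the 6 genes were 0.45, -0.12 and 0.85. In the libraries labelled HC Irf1 was at 61.3, 40.4 and 44.7 against 62.9 and 46.5. The lowest p there was that of Jak1, a kinase of the receptor, at a log2 fold change of -0.15 ± 0.12 (adjusted p = 0.609). In KMC Socs1 was at 1.72 and 3.18 against 0.136 and 0.464 (log2 2.93 ± 0.73, adjusted p = 0.0954), and Irf1 at 16.0 and 21.5 against 8.31 and 11.4. Ifng itself had 5, 1 and 0 counts in the libraries labelled HC, 6 and 5 in control, 2 and 3 in KMC and 0 and 0 in KC, too few for the filter, and was not listed in the MC table.

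Of the 10 endosomal processing genes, 8 were above control in MC, 2 in the libraries labelled HC and 8 in KMC. The gene with the lowest p in all 3 was Ctse, an aspartic protease of gastric-type epithelium and antigen-presenting cells, and its order was not that of the class II genes. It was at 6.56, 7.29 and 8.10 in MC against 2.97, 2.59 and 0.449 in control (log2 1.84 ± 0.52, adjusted p = 0.208), at 2264, 2499 and 1930 in the libraries labelled HC against 988 and 966 (log2 1.19 ± 0.19, adjusted p = 0.0595), and at 11.6 and 68.2 in KMC against 2.31 and 3.37 in KC (log2 3.80 ± 0.81, adjusted p = 0.0796). DESeq2 called it in all 3, as the only gene of this group in MC and in HC, and with Lgmn and Ctsh in KMC. Ctss and Ctse thus lay on opposite sides of control in the libraries labelled HC.

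Surface turnover of class II is set by the ubiquitin ligase March1, which CD83 opposes. March1 was at 6.46, 7.12 and 8.25 in MC against 1.49, 3.45 and 1.93 (log2 1.66 ± 0.32, adjusted p = 0.0928), at 10.6, 12.3 and 15.0 in the libraries labelled HC against 25.1 and 24.2 (log2 -0.96 ± 0.17, adjusted p = 0.0683), and at 8.60 and 18.3 in KMC against 1.09 and 2.09 (log2 3.05 ± 0.53, adjusted p = 0.0796). Its groups did not overlap in any of the 3. Cd83 was at 4.83, 5.15 and 3.93 in MC against 1.42, 2.23 and 1.62 (log2 1.39 ± 0.24, adjusted p = 0.0840), at 16.0, 6.48 and 10.9 in the libraries labelled HC against 31.6 and 11.2, where the groups overlapped (log2 -0.94 ± 0.504, adjusted p = 0.426), and at 11.3 and 17.6 in KMC against 1.63 and 2.13 (log2 2.93 ± 0.41, adjusted p = 0.0796). March8, a related ligase named here after its values were seen, had a log2 fold change of -0.29 ± 0.13 in MC, 0.18 ± 0.09 in HC and -0.50 ± 0.37 in KMC.

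On the T cell side, Cd4, the coreceptor for class II, was at 1.83, 1.32 and 2.05 in MC against 0.529, 0.595 and 0.404 in control (3.34-fold, log2 1.74 ± 0.32, adjusted p = 0.0865). It was at 11.02, 3.85 and 4.85 in the libraries labelled HC against 16.4 and 10.1 (log2 -1.01 ± 0.47, adjusted p = 0.361) and at 3.86 and 4.07 in KMC against 0.613 and 0.735 in KC (log2 2.54 ± 0.49, adjusted p = 0.0796). Lag3, another receptor for class II, was at 0.909 and 2.73 in KMC against 0.204 and 0.426 in KC (log2 2.47 ± 0.78, edgeR adjusted p = 0.130), and DESeq2 called it there and in no other comparison. In the direct comparison of the MC and HC effects edgeR called 3 of the 30 pathway genes tested, H2-Eb2 (difference 4.61 ± 0.97, adjusted p = 0.0381), March1 (2.61 ± 0.38, adjusted p = 0.0188) and Cd4 (2.74 ± 0.60, adjusted p = 0.0424), all with the larger effect in MC. Map4k1 differed in the same sense (2.11 ± 0.35, adjusted p = 0.0262). Of 19 alternative fits, 6 lost the call of March1 (without MC 2, MC control 1, HC 2, HC 3, HC control 1 or the pair with H2-Ea-ps, with an adjusted p up to 0.104), and 7 lost that of Map4k1 (those 6 and library size alone, up to 0.131). The call of H2-Eb2 was lost in 10 (the same 6, and without MC 3, MC control 3, HC 1 or HC control 2, up to 0.154). That of Cd4 was lost in 12 (the same 6, without MC 1, MC 3, MC control 3 or HC control 2, and in both scalings by library size, up to 0.180). None of these turned a sign.

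**Figure D5:**
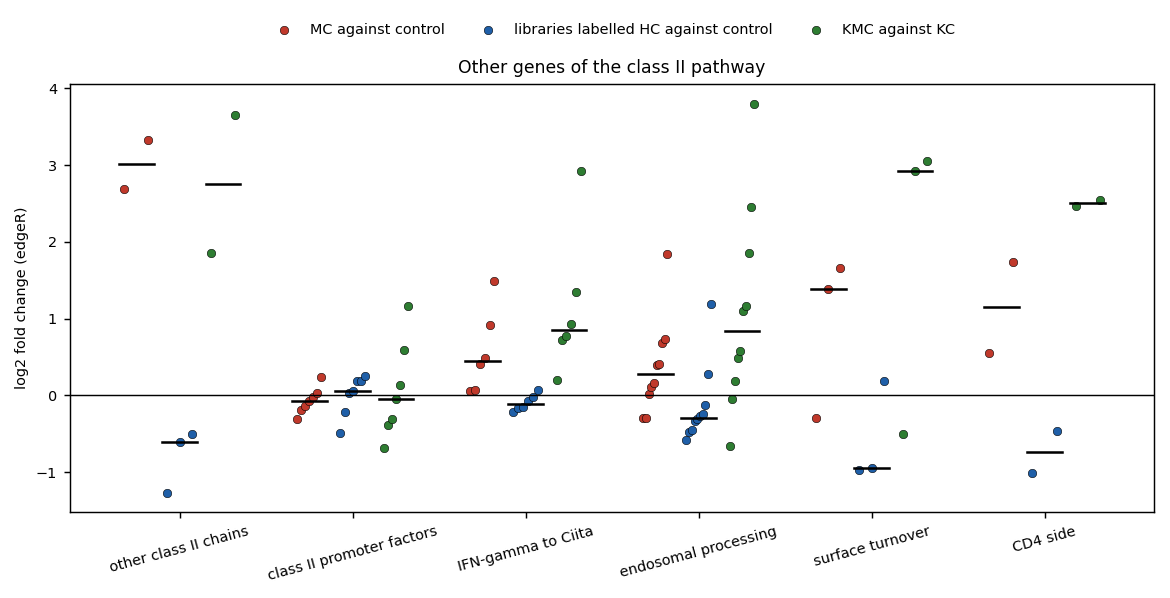
Log2 fold change (edgeR) of the other pathway genes by group, 1 point a gene with a bar at the median, for MC, the libraries labelled HC and KMC against their own controls. The medians of the promoter factors lie near 0 in all 3 comparisons (-0.07, 0.06 and -0.04), with single genes from -0.68 to 1.17 in KMC, and the interferon-gamma route lies at 0.45, -0.12 and 0.85.

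The genes whose pattern was most like that of H2-Aa, H2-Ab1, H2-Eb1 and Cd74 were sought among 12318 genes with a mean of at least 2 scaled CPM, by Pearson's r over the 15 libraries after centring each gene within its experiment. The 5 highest outside the 10 genes were Ly86 (r = 0.98), Themis2 (0.98), Selplg (0.97), Casp1 (0.97) and Naaa (0.97). These values share libraries and depth and are a description. Over all 12318 genes the median r was -0.02 and the 90th percentile 0.82. Of the other members, H2-DMa and H2-DMb1 reached 0.97, Ciita 0.95 and Ctss 0.92, whereas H2-DMb2 reached 0.76 and stood 1844th. Ptprc, the pan-leukocyte phosphatase CD45, had an r of 0.95, next to Ciita.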

How the data were processed

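Pancreas RNA from 15 pools of 3 mice was sequenced. Per the labels, the authors' processing names bcl2fastq 2.17.14, STAR 2.6.1a, HTSeq 0.6.1, DESeq2 and mm10, and the authors deposited raw read counts per gene in 3 tables, 1 an experiment. The MC table lists 15175 genes and the others 49585, so genes missing from the first were not tested there. Per the labels, the HC, KC and KMC libraries were made with a KAPA stranded kit and the MC libraries with Illumina protocols. The paper names Illumina TruSeq stranded libraries, so labels and paper disagree. The authors' own table of fold changes and p-values for MC was not used.

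Counts were filtered with filterByExpr, scaled by TMM and fitted within each experiment by edgeR 4.0.16 (glmQLFit, glmQLFTest, R 4.3.3), with p-values adjusted over all genes tested by Benjamini-Hochberg. SE was taken from the F statistic, as the size of the log2 fold change over its root. DESeq2 1.42.0, other scalings, no filter, each library left out, the replicate block and 1 fit of 9 libraries were alternatives. Leaving out HC 3 and HC control 2 together was chosen after seeing the data. Intervals and the 3-count limit cover counting error only. On simulated counts with 200 changed genes, 100% (MC, 13803 genes), 100% (HC, 18141), 98.5% (KMC, 15409) and 92% (MC minus HC, 14785) were recovered. In the same order, the median absolute log2 fold change was 2.02, 1.97, 2.01 and 1.99, and 3, 10, 6 and 8 unchanged genes were also called. The simulation gave every gene the same spread beyond counting error and planted changes only in well-counted genes. It therefore checks that the fit works and does not give the power in the real libraries.

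The 10 genes, the pathway and marker lists and the tests were chosen with earlier results of these data known. Pathway genes were named if edgeR called them, if they had the lowest p of their group, or if fixed by name (Irf1, Rfx5, Ifng, H2-Ob and Cd4). The others were counted, with a few named after their values were seen (Rfxap, Lag3, March8 and those DESeq2 called), and 1 gene of the rule is not reported here. The counting could divide reads between the near-identical H2-DMb1 and H2-DMb2.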

Additional observations from a re-analysis of the deposited data

Results flagged for a closer look

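Of the 10 class II genes, the pathway genes and Map4k1, 7 had a log2 effect in MC that differed from that in the libraries labelled HC by edgeR's test of the difference itself, which called 1.77% of all genes with the larger effect in MC. Among the 10 class II genes these were H2-Aa (2.08), H2-Ab1 (2.21) and Cd74 (2.22). Among the other pathway genes they were H2-Eb2 (4.61, with 0 to 4 counts in the MC controls), March1 (2.61) and Cd4 (2.74), and Map4k1 differed by 2.11. Among marker genes, counted by list, edgeR called 3 of 9 pan-leukocyte, 3 of 10 macrophage, 2 of 10 dendritic cell and 2 of 8 B cell genes with the larger effect in MC, and 2 of 7 ductal genes with the larger effect in HC. Of 19 alternative fits, 10 lost the call of Cd74, 11 that of H2-Aa, 11 that of H2-Ab1, 10 that of H2-Eb2, 12 that of Cd4, 7 that of Map4k1 and 6 that of March1. Single outlying values were not tested, with at most 3 libraries in a group. The part of age, library preparation and leukocyte content in these differences was not tested.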

How the results depend on the processing

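All 10 genes kept their direction in MC, in KMC and in the difference between MC and HC under every alternative run, and in HC under every one but the omission of HC control 1. Calls were less stable. In MC, edgeR called 0 of the 10 genes, DESeq2 called 8, and leaving out single libraries gave 0 to 5. In HC the replicate block gave 1 call and the other alternatives 0. In KMC, edgeR called 0, DESeq2 9, library size alone 10, the same without acinar genes 9, the replicate block 9, the fit of 9 libraries 10, and leaving out single libraries gave 0 to 9 (9 without KMC 1). For MC minus HC, edgeR called 3, DESeq2 9, library size alone 0, the same without acinar genes 0, the fit without HC 3 and HC control 2 0, and leaving out single libraries gave 0 to 7. Where 1 library was left in a group, it was assumed to vary like the others. In KMC the share of all genes called higher was 0.00636% by edgeR in the main fit, 9.93% by DESeq2 and 29.8% with library size alone. It was 12.9% without acinar genes in the library size, 10.6% with the replicate block and 12.1% in the fit of 9 libraries. The cause of the differences between settings was not tested.

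Over all genes, calls numbered 0 (edgeR) and 475 (DESeq2) in MC, with 171 without MC 1 and 718 without MC control 2. In HC they numbered 104, with 482 by DESeq2, 395 with no filter, 339 with the replicate block, 51 without acinar genes in the library size, 1 in the fit of 9 libraries and 0 to 379 with single libraries left out. In KMC they numbered 3, with 2130 by DESeq2, 4714 with library size alone, 2051 without acinar genes, 9 with no filter, 2464 with the replicate block, 3230 in the fit of 9 libraries and 0 to 2312 with single libraries left out. For MC minus HC they numbered 325, with 1011 by DESeq2, 98 with library size alone, 145 without acinar genes and 0 to 1584 with single libraries left out. The median of all genes moved to 0.29 (MC), 1.47 (KMC) and 0.34 (MC minus HC) with library size alone, and in KMC to 0.68 without acinar genes and 0.30 with no filter.

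Signs turned for few values. In HC, leaving out single libraries gave -1.33 to 0.67 for H2-Eb1, -1.07 to 0.46 for Ciita, -1.34 to 0.12 for H2-DMb1, -0.31 to 0.024 for H2-Oa and -0.37 to 0.068 for Irf1, with each positive value from the fit without HC control 1. Rfx5 in HC (0.032) became -0.0064 without acinar genes in the library size, -0.040 with the replicate block, -0.079 without HC 3 and HC control 2, and -0.055 to 0.088 with single libraries left out. In MC, library size alone gave 0.17 for Rfx5 and 0.031 for Rfxank, and leaving out single libraries gave -0.28 to 0.039 for Rfx5.

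Whether replicate numbers paired the libraries was not settled. Deviations of same-numbered libraries correlated at 0.07, 0.30 and -0.30 in MC, 0.19 and 0.17 in HC and 0.05 in KMC. In MC, differently numbered libraries correlated at -0.39 to 0.35. In a group of 2 libraries the deviations mirror each other, so the HC and KMC values cannot decide it. Counts of H2-Oa, H2-Eb2 and H2-Ea-ps were low in the MC controls or KC, which limits their folds.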
